A study of Homo sapiens with 18 samples.

Results

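The KRAB zinc-finger genes of chromosome 19p12, with the adjoining ones of 19p13.11, were followed across a dose series of the histone demethylase inhibitor JIB-04 in lymphoma cells. The members were chosen by name, from a list of 32 gene symbols. The deposited tables held 31 of these among 23686 genes, and ZNF730 was not found under that symbol. RNA was measured by bulk sequencing in 18 libraries of OCI-Ly1 and TMD8, established human cell lines of diffuse large B-cell lymphoma. Each line received JIB-04 at 150 or 500 nM, or 0.01% DMSO as vehicle, and each of the 6 groups has 3 libraries. The culture medium, IMDM for OCI-Ly1 but RPMI for TMD8, changed with the line, so the effects of line and medium cannot be told apart. The labels describe the libraries as technical triplicates and name no separate cultures, so every p-value here measures the spread between libraries and may not cover the spread between cultures. The labels give no genotype and no treatment time.

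KRAB zinc-finger proteins form the largest family of human transcription factors, and many of their genes lie in tandem arrays on chromosome 19. Their fingers read DNA, often within retrotransposons, and their KRAB domain recruits the corepressor TRIM28. TRIM28 in turn brings the histone methyltransferase SETDB1 and HP1 proteins, which write and read trimethylated lysine 9 of histone H3 (H3K9me3), a mark of silent chromatin. The zinc-finger arrays carry this mark over their own gene bodies in many cell types, and the zinc-finger protein ZNF274 helps to place it there. JIB-04 is known as an inhibitor of Jumonji histone demethylases, several of which remove methyl groups from H3K9. The comparison asks how the members' RNA differed with dose and between the lines. In bulk RNA, fewer cells expressing a gene and less RNA per cell cannot be told apart.

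The members' promoters share a short sequence, and 4 of them are shown because the same bases stand before genes that differed widely between the lines and a gene that differed little. ZNF254 and ZNF726 had no counts in TMD8, ZNF91 was far lower there, and ZNF431 was nearly as high there as in OCI-Ly1. Each is given as the 150 bases before the start site, read 5′ to 3′ on the gene's strand, from RefSeq on GRCh38.p14. Capitals mark TCCAATCAGG, a match to which contains CCAAT, the core bound by the general factor NF-Y.
ZNF254, chr19:24087037-24087186, plus strand: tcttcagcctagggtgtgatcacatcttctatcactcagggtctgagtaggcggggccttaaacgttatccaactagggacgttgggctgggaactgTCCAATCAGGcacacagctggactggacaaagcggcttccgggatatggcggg
ZNF726, chr19:23914736-23914885, plus strand: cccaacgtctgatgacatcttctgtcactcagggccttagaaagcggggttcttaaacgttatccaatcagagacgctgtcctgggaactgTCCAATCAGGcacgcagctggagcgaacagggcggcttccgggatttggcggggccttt
ZNF91, chr19:23395472-23395621, minus strand: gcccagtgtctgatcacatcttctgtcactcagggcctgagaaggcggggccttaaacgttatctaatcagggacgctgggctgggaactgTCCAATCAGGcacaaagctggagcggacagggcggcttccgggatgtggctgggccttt
ZNF431, chr19:21141890-21142039, plus strand: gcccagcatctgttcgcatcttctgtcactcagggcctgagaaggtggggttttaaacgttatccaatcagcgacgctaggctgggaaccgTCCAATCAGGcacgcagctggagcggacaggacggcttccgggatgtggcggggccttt

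RefSeq promoter sequences, each 300 bases long with 250 before and 50 after the start, were matched for 26 of the 32 symbols. TCCAATCAGG was chosen, without use of expression, as the 10-base word found in the most member promoters, and was searched on both strands. It was present in 24 of the 26 member promoters (92.3%). That share is high by the choice itself, so the shares given here describe the promoters and test nothing. The same letters were in 34 of 492 promoters of other genes named ZNF (6.91%). Over all 35089 promoters of non-members, those 492 included, they were in 98 (0.279%). CCAAT alone, which lies within TCCAATCAGG, was in all 26 member promoters, in 41.9% of the other ZNF promoters and in 34.6% of all non-member promoters. In the members the match began 30 to 88 bases before the start, with a median of 58. The member promoters held 8 to 18 CG pairs, with a median of 10. Medians were 22 in the other ZNF promoters and 14 in all non-member promoters. The number of CG pairs and the level difference between the lines had a Spearman correlation of -0.10 across the 24 members with both values, which share their libraries and much of their sequence, and of -0.23 across the 22 of them with counts in TMD8. Of the 5 members without counts in TMD8, ZNF254 and ZNF726 hold the match, ZNF257 does not, and ZNF676 and ZNF98 have no promoter entry.

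The OCI-Ly1 libraries were the deeper ones, with 17579732 to 32651115 estimated counts each, while those of TMD8 held 9550092 to 20509500. The B-cell markers CD79A, a chain of the B-cell receptor complex, and PAX5, a B-lineage transcription factor, were present in every library. CD79A stood at 210.4 to 276.6 TPM over the OCI-Ly1 libraries and 176.0 to 247.2 TPM over those of TMD8, and PAX5 at 33.3 to 49.7 and 57.1 to 104.2 TPM. TPM is a level corrected for transcript length and scaled to the same total in each library. The 4 T-cell markers summed to 26.7 to 28.9 TPM in OCI-Ly1 with DMSO and 11.9 to 13.8 TPM at 500 nM, and to at most 1.82 TPM in TMD8. The 3 epithelial markers summed to 14.9 to 17.4 TPM in OCI-Ly1 and 7.39 to 8.50 TPM in TMD8 with DMSO, and EPCAM among them stood at 3.99 to 4.57 and at most 0.072 TPM. The 4 myeloid markers summed to at most 1.53 TPM in any library. The 3 fibroblast markers summed to at most 0.599 TPM in TMD8 with DMSO and 2.73 to 2.96 TPM at 500 nM, and the 3 erythroid markers to at most 0.690 and 1.67 to 1.95 TPM. Their part in the results was not tested.

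With DMSO the cluster had a much higher level in OCI-Ly1 than in TMD8. Levels within a gene are given as normalised read counts scaled by library size (CPM, TMM scaling), on a scale common to both lines where lines are compared. The 31 members together took 878, 885 and 995 CPM in the 3 OCI-Ly1 libraries and 230, 252 and 260 CPM in the 3 TMD8 libraries. The lowest OCI-Ly1 library was far above the highest TMD8 library. The means were 919 ± 65.5 and 248 ± 15.4 CPM (SD, n = 3), which gives a ratio of 3.71. At both JIB-04 doses the ratio was 3.87.

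The 3 members with the highest level per length in OCI-Ly1 with DMSO were ZNF101, ZNF91 and ZNF85. ZNF101, the first member in order along the chromosome, stood at 57.5, 59.2 and 59.96 TPM. ZNF91, a known repressor of SVA retrotransposons, stood at 19.1, 18.7 and 24.6 TPM. ZNF85 stood at 17.8, 18.7 and 22.2 TPM, so that its values overlapped those of ZNF91. ZNF101 lay apart from the other members. The median over the 31 members was 9.35 TPM, and 26 members had a mean of at least 1 TPM.

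In TMD8 with DMSO the order of members was different at the top. ZNF101 again came first, at 15.3, 12.1 and 11.4 TPM. ZNF431 followed at 5.48, 4.86 and 4.87 TPM and ZNF430 at 5.07, 4.398 and 4.389 TPM, 2 near neighbours whose values overlapped. These 3 members gave 52.3% of the summed TPM of the cluster, against 29.7% for the top 3 in OCI-Ly1. The median over the members was 0.501 TPM, and 10 members had a mean of at least 1 TPM. ZNF91 stood at 0.45, 0.35 and 0.38 TPM and ZNF85 at 0.41, 0.24 and 0.30 TPM.

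**Figure D1:**
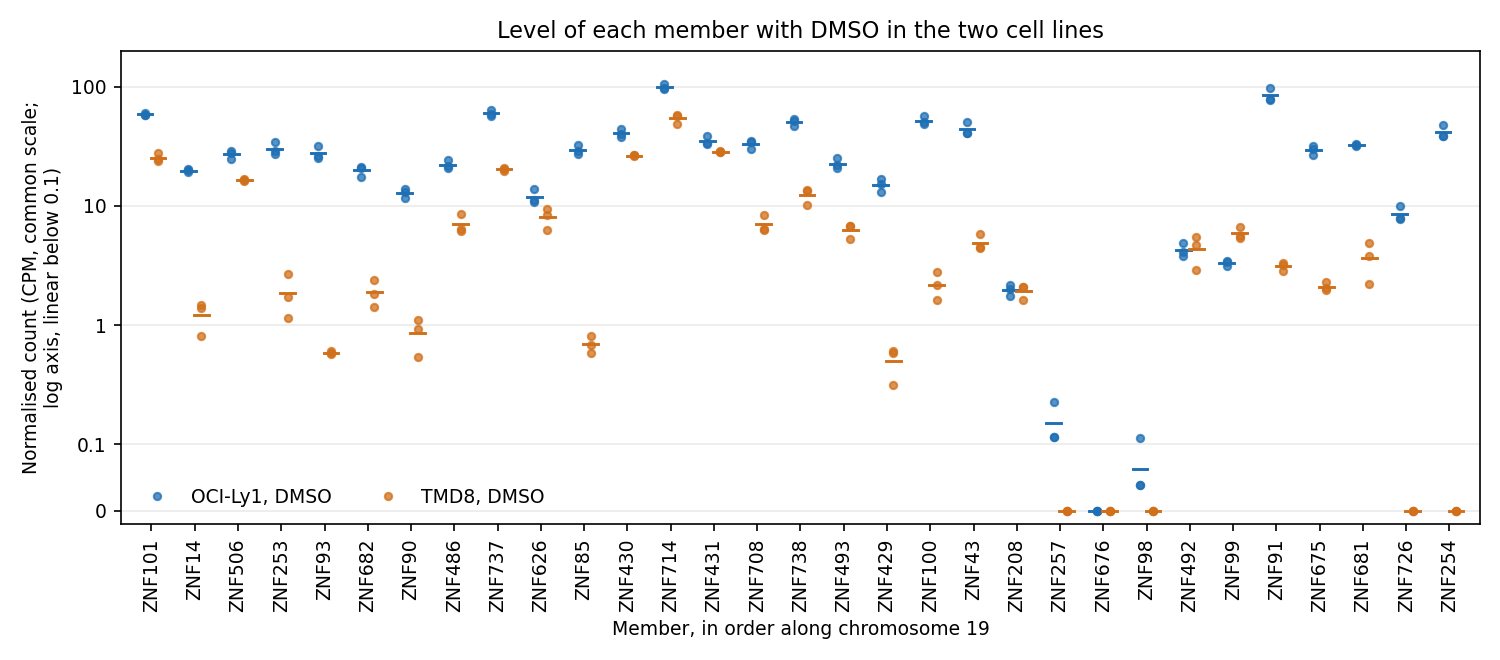
Level of each of the 31 members with DMSO in CPM on the scale common to both lines (log axis, linear below 0.1), in order along chromosome 19. Points are libraries and bars are means of 3; heights compare a gene between lines and not genes with each other. ZNF254 and ZNF726 have no counts in TMD8, while ZNF208 and ZNF492 overlap between the lines and ZNF99 is higher in TMD8.

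A low-count filter set how many members could be tested. In OCI-Ly1 28 of the 31 passed it and in TMD8 25, all of which also passed in OCI-Ly1. ZNF257, ZNF676 and ZNF98 passed in neither line: their highest value in any library was 13.1, 4.02 and 4.39 counts, all in OCI-Ly1. ZNF93, ZNF726 and ZNF254 passed in OCI-Ly1 only. A member that passed through OCI-Ly1 alone had to differ between the lines, so counts are also given for the 25 members that passed in both.

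Of the 28 members tested, 25 were called higher in OCI-Ly1 than in TMD8 with DMSO by edgeR's quasi-likelihood test (adjusted p under 0.05), beside 37.8% of all genes tested. Only ZNF99 was called lower among the members, beside 39% of all genes. Among the 25 members that passed in both lines, 22 were called higher and 1 lower, beside 38.3% and 38.5% of all genes that passed in both. The median log2 difference was 2.67 over the 28 members and 2.03 over those 25, against -0.02 over all genes. The median of 2.67 was the same with the 2 members that had no counts in TMD8 set to their bound. Both bounds lie above that median, so it could not move.

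The largest called differences belonged to ZNF254, ZNF726, ZNF93 and ZNF85. ZNF254 had 38.5, 38.8 and 48.1 CPM in the OCI-Ly1 libraries and 0 counts in each TMD8 library. Against a floor of 3 counts per TMD8 library it was at least 235-fold higher in OCI-Ly1. ZNF726, which lies beside it in gene order, had 7.94, 7.78 and 9.91 CPM in OCI-Ly1 and 0 counts in TMD8, and was at least 48.0-fold higher. Neither gene showed any count in TMD8 in the libraries given JIB-04.

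ZNF93, a known repressor of L1 retrotransposons, had 25.3, 26.2 and 31.8 CPM in OCI-Ly1 against 0.604, 0.585 and 0.577 CPM in TMD8. Its log2 difference was 5.55 with an SE of 0.17, the TMD8 values resting on 9.03 to 11.03 counts per library; since it passed the filter through OCI-Ly1 alone, no p is given. ZNF85 had 26.99, 28.9 and 32.7 CPM against 0.805, 0.585 and 0.682 CPM. Its log2 difference was 5.42 with an SE of 0.18 (adjusted p = 9.9e-21, edgeR). ZNF91 had 78.6, 77.6 and 97.0 CPM against 3.29, 2.87 and 3.20 CPM, a log2 difference of 4.76 with an SE of 0.14 (adjusted p = 5.1e-22, edgeR). In these 3 genes the OCI-Ly1 and TMD8 libraries lay far apart.

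The difference was uneven along the array. A log2 difference of at least 2 was reached by 16 of the 28 tested members, 4 lay from 1 to 2, and 8 were under 1. ZNF430, ZNF714 and ZNF431, which follow each other in gene order, had differences of only 0.62, 0.88 and 0.31, all called. ZNF431 had 33.1, 33.4 and 38.6 CPM in OCI-Ly1 against 28.2, 28.1 and 28.9 CPM in TMD8, groups that were close and did not overlap. The members on either side of these 3, ZNF85 and ZNF708, differed by 5.42 and 2.22. ZNF506 and ZNF626 also differed by less than 1, at 0.73 and 0.57.

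ZNF208, ZNF492 and ZNF99 were the tested members not called higher in OCI-Ly1. ZNF208 differed by 0.03 with an SE of 0.21 and ZNF492 by -0.06 with an SE of 0.21, and neither was called (adjusted p = 0.89 and 0.80, edgeR). ZNF99 had 3.45, 3.38 and 3.14 CPM in OCI-Ly1 and 5.57, 5.38 and 6.71 CPM in TMD8, a log2 difference of -0.83 with an SE of 0.18 (adjusted p = 0.00020, edgeR). In gene order ZNF257, ZNF676 and ZNF98, the members near 0 in both lines, lie between ZNF208 and ZNF492, and ZNF99 follows. On the log2(TPM + 1) scale differences changed sign or size. ZNF492 became 0.47 (adjusted p = 0.00025, limma) and ZNF99 0.05, while the median over all genes there was 0.61. Reads of ZNF492 could be shared with other genes, since 45.1% of the 31-base words of its transcripts in GENCODE v29 also occur elsewhere; 35.4% of all its words occur in ZNF98. Over the members the share found in any other gene ran from 5.19% to 49.9%, with a median of 17%, so that counts between near copies are uncertain.

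Other genes gave a measure of how far such differences reach. A log2 difference of at least 2, a size chosen after the values were seen, was reached by 57.1% of the 28 tested members, 17.4% of 407 other ZNF genes and 7.14% of all genes. Among genes that passed in both lines the shares were 52.0% of 25 members, 8.76% of 354 other ZNF genes and 4.13% of all genes. The median difference was 0.16 over the other ZNF genes and -0.53 over 17 tested protein-coding genes flanking the cluster. Flanking genes were the nearest 10 measured on each side in gene order, whatever their distance from it. PBX4 alone of the 17 exceeded 2, and it had at most 2 counts in a TMD8 library with DMSO. Of 7 other listed genes that lie between the members, 4 were tested and all 4 were called higher in OCI-Ly1, beside 37.8% of all genes. ZNF724P and ZNF826P among them passed the filter through OCI-Ly1 alone, so these genes had to differ between the lines. The pseudogene RPSAP58 had 53.3 ± 10.97 CPM there and 0.774 ± 0.111 CPM in TMD8 (SD, n = 3). ZNF724P had 7.30 ± 0.551 CPM in OCI-Ly1 (SD, n = 3) and no counts in TMD8 with DMSO. ZNF826P had 7.47 ± 0.475 CPM in OCI-Ly1 (SD, n = 3) and at most 1 count in a TMD8 library. LINC00663 differed least of the 4, by 1.05.

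**Figure D2:**
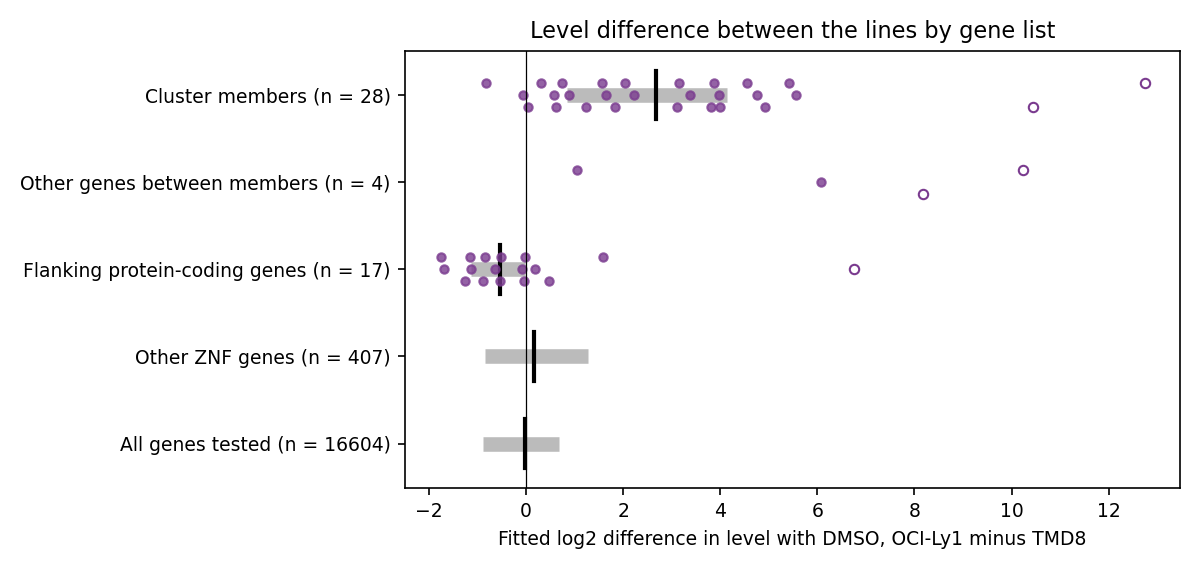
Fitted log2 difference in level between OCI-Ly1 and TMD8 with DMSO for the cluster members, other genes between them, flanking protein-coding genes, other ZNF genes and all genes tested. Points are genes, black lines are medians and grey bars span the quartiles; open points mark genes with at most 3 counts in every TMD8 library, whose fitted value is no measure of size. The member median of 2.67 lies above the upper quartile of all genes.

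Against this difference between lines, the response of the cluster to JIB-04 was small. No member reached a log2 fold change of 1 at either dose in either line. At 500 nM 8.88% of all genes tested in OCI-Ly1 and 10.2% in TMD8 were called with a change of at least that size. At 500 nM the members' median SE was 0.09 for OCI-Ly1 and 0.19 for TMD8. The 95% interval reached a log2 change of 1 for 1 member in OCI-Ly1 and for 3 members in TMD8. Dose comparisons use CPM scaled within each line.

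At 150 nM in OCI-Ly1 no member was called in either direction by edgeR, beside 0.748% of all genes called higher and 0.141% called lower. A single member of the 28 had an unadjusted p under 0.05, and DESeq2 called none. The median change was 0.08 over the members and -0.00 over all genes, and without 150 nM replicate 3 or 150 nM replicate 1 the members' median was 0.01 or 0.17. It was 0.05 without DMSO replicate 1 or 2, 0.15 without DMSO replicate 3 and 0.04 without 150 nM replicate 2. The changes ran from -0.13 for ZNF492 to 0.43 for ZNF99.

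At 500 nM in OCI-Ly1 8 of 28 members were called higher and 2 lower. The members' share of higher calls was near the background of 27.7%, and their share of lower calls, 7.14%, was below the background of 25.9%. The 8 were ZNF726, ZNF90, ZNF93, ZNF682, ZNF737, ZNF254, ZNF91 and ZNF714, and the 2 were ZNF208 and ZNF101. The median change was 0.15, beside -0.00 over all genes. On log2(TPM + 1) the medians were 0.25 over the members and 0.10 over all genes, and after centring 0.03 and -0.12. Of all genes called, 51.6% were higher, against 71.9% on log2(TPM + 1), 32.3% after centring and 64.0% with scaling by library size alone. Leaving out 1 DMSO library moved the number called higher to 5 without replicate 1, 4 without replicate 2 and 11 without replicate 3. The DMSO library of replicate 3 had the highest summed level of its group, at 1037 CPM against 908 and 921 CPM.

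ZNF726 had 8.21, 8.10 and 10.3 CPM with DMSO, 9.73, 10.7 and 10.3 CPM at 150 nM and 13.1, 11.9 and 11.8 CPM at 500 nM. All 3 libraries at 500 nM lay above all others, and the log2 change was 0.46 with an SE of 0.11 (adjusted p = 0.0022, edgeR). ZNF90 had 13.5, 12.1 and 14.5 CPM with DMSO, 13.9, 15.1 and 15.9 CPM at 150 nM and 16.7, 17.9 and 18.8 CPM at 500 nM. Its groups at 0 and 500 nM did not overlap, and the log2 change was 0.41 with an SE of 0.09 (adjusted p = 0.0016, edgeR). ZNF93 had 26.2, 27.3 and 33.1 CPM with DMSO, 30.1, 32.7 and 35.3 CPM at 150 nM and 37.0, 34.9 and 38.96 CPM at 500 nM, again without overlap. Its log2 change was 0.35 with an SE of 0.09 (adjusted p = 0.0026, edgeR). These 3 members were called under all 17 alternative settings tried.

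ZNF682 had 18.04, 21.95 and 21.8 CPM with DMSO, 20.7, 21.8 and 24.5 CPM at 150 nM and 24.6, 25.01 and 28.98 CPM at 500 nM. ZNF737 had 61.2, 59.0 and 66.0 CPM with DMSO, 52.8, 66.9 and 72.5 CPM at 150 nM and 74.8, 73.6 and 78.2 CPM at 500 nM. In both genes every library at 500 nM was above every DMSO library, with log2 changes of 0.35 (SE 0.10) and 0.28 (SE 0.09). The other 3 rises were smaller and less stable. ZNF254 rose by 0.27 on the log2 scale, ZNF91 by 0.24 (adjusted p = 0.043, edgeR) and ZNF714 by 0.18 (adjusted p = 0.048, edgeR), and each lost its call when some single libraries were left out.

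ZNF208 fell from 2.26, 1.82 and 2.10 CPM with DMSO, by way of 1.86, 2.19 and 1.65 CPM at 150 nM, to 1.25, 1.39 and 1.38 CPM at 500 nM. The groups did not overlap, and the log2 change was -0.63 with an SE of 0.22 (adjusted p = 0.026, edgeR); the adjusted p ran from 0.0012 to 0.18 over the alternatives. ZNF101, the most abundant member per length, had 60.3, 63.0 and 60.8 CPM with DMSO, 57.9, 62.0 and 65.2 CPM at 150 nM and 55.3, 47.1 and 52.6 CPM at 500 nM. Its fall of -0.25 (SE 0.07, adjusted p = 0.0055, edgeR) appeared between 150 and 500 nM, where the change was also -0.25. Between those doses ZNF90 and ZNF737 were the 2 members called higher and ZNF101 the 1 called lower, beside 25.1% and 21.1% of all genes. ZNF90 was called in 10 and ZNF737 in 12 of 17 alternatives, and neither without 150 nM replicate 1, 500 nM replicate 2 or 500 nM replicate 3.

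**Figure D3:**
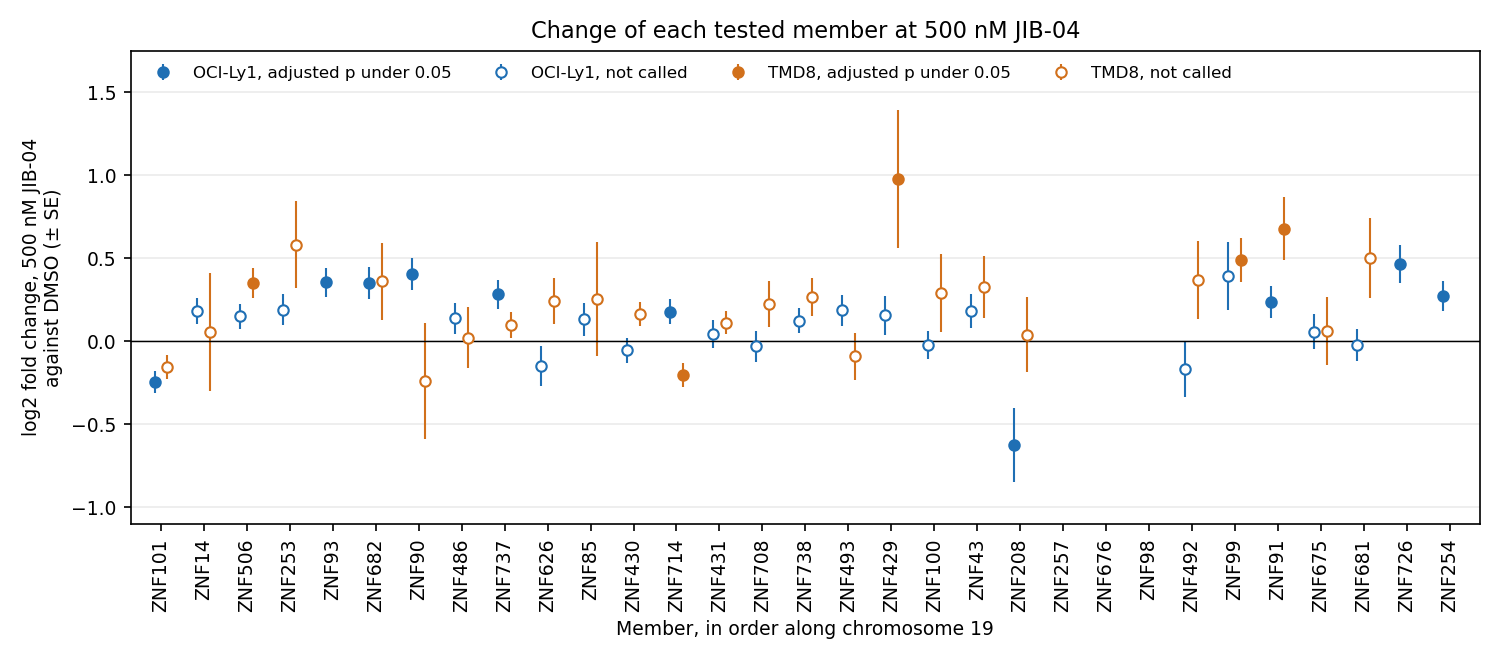
log2 fold change of each tested member at 500 nM JIB-04 against DMSO with its SE, in order along chromosome 19, for OCI-Ly1 (28 members) and TMD8 (25 members). Filled points had an adjusted p under 0.05; in OCI-Ly1 8 filled points lie above 0 and 2 below, in TMD8 4 above and 1 below.

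In TMD8 at 150 nM ZNF506 was the only member of 25 called higher and ZNF101 the only one called lower, beside 19.2% and 25% of all genes. At 500 nM 4 members were called higher (16%) and 1 lower (4%), beside 29.9% and 30.7% of all genes. Both shares were below the background, but the members' median SE was 0.19, against 0.09 in OCI-Ly1. Small changes of members were harder to call in TMD8. The 4 were ZNF91, ZNF99, ZNF506 and ZNF429, and the 1 was ZNF714. The median change was 0.25 over the members and 0.04 over all genes. The members' median was 0.14 without DMSO replicate 1, 0.16 without DMSO replicate 2 and 0.16 with a trend on gene length removed. Without DMSO replicate 3 the number called higher was 7. The calls depended on the scale: on log2(TPM + 1) none of these 4 was called, 3 members were called lower, and the medians were -0.04 over the members and -0.22 over all genes. Of all genes called in TMD8, 49.4% were higher, against 18.8% on that scale and 59.4% with scaling by library size alone.

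ZNF91 had 3.11, 2.75 and 3.07 CPM with DMSO, 3.19, 3.8 and 3.92 CPM at 150 nM and 3.95, 4.41 and 6.24 CPM at 500 nM. All 3 libraries at 500 nM were above every other library, and 1 of them was well above its fellows. The log2 change at 500 nM was 0.68 with an SE of 0.19 (adjusted p = 0.0046, edgeR). On log2(TPM + 1) its change was 0.10 and was not called (adjusted p = 0.23, limma). Even then ZNF91 remained far below its level in OCI-Ly1, where the mean was 104 ± 4.34 CPM at 500 nM (SD, n = 3).

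ZNF99, the one member higher in TMD8, had 5.27, 5.16 and 6.44 CPM with DMSO, 5.22, 6.22 and 6.20 CPM at 150 nM and 7.98, 7.93 and 7.88 CPM at 500 nM. The 3 libraries at 500 nM were close together and above all others. The log2 change against DMSO was 0.49 with an SE of 0.13 (adjusted p = 0.0038, edgeR), and ZNF99 was the only member called between 150 and 500 nM, where 13.7% of all genes were called higher and 15% lower. In OCI-Ly1 its change at 500 nM was 0.39 with an SE of 0.21 and was not called. On log2(TPM + 1) the TMD8 change was 0.04 (adjusted p = 0.56, limma).

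ZNF506 had 15.2, 15.8 and 16.1 CPM with DMSO, 17.2, 19.2 and 19 CPM at 150 nM and 19.6, 22.6 and 17.6 CPM at 500 nM. Neither dose group overlapped the DMSO group. The log2 change was 0.24 at 150 nM and 0.35 at 500 nM (adjusted p = 0.039 and 0.0028, edgeR), and on log2(TPM + 1) the value at 500 nM was -0.03. The call at 150 nM was made in 7 of 17 alternatives, and was lost with DESeq2 (adjusted p = 0.086) and on all 3 TPM scales. ZNF429 rested on few reads: 8.51, 9.51 and 6.28 counts with DMSO and 16.5, 15.3 and 4.90 counts at 500 nM. Its groups overlapped, and the log2 change of 0.98 had an SE of 0.41 (adjusted p = 0.0498, edgeR).

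ZNF714 had the highest CPM of the members in both lines, and it was the only member whose response at 500 nM was called as different between them. In OCI-Ly1 it had 101, 100.3 and 110.6 CPM with DMSO, 95.1, 117 and 119 CPM at 150 nM and 115, 116 and 122 CPM at 500 nM. In TMD8 it had 45.8, 55.3 and 54.4 CPM with DMSO, 44.6, 47.0 and 49.3 CPM at 150 nM and 47.5, 43.3 and 44.5 CPM at 500 nM. The DMSO and 500 nM groups did not overlap in OCI-Ly1 and overlapped in TMD8. The changes were 0.18 in OCI-Ly1 and -0.20 in TMD8, and the difference between them was 0.41 with an SE of 0.11 (adjusted p = 0.0027, edgeR). It was called under all 26 alternatives tried.

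For all other members no difference in response between the lines was called. At 500 nM 1 of 28 members was called as higher in OCI-Ly1 and none as lower, beside 28.2% and 18.1% of all genes, and at 150 nM none was called, beside 15% and 8.33%. Among the 25 members that passed the filter in both lines, 1 was called as higher and none as lower at 500 nM. Of all genes that passed in both, 31.5% and 19.5% were called. At 150 nM none of the 25 was called, beside 17.05% and 9.17% of those genes. At 500 nM 2 members had an unadjusted p under 0.05, and at 150 nM 3 did. DESeq2 called 1 at 500 nM. ZNF254 and ZNF726, with no counts in TMD8, are among the 28 and carry no information on this difference. The median SE of the difference at 500 nM was 0.24 over the 28 members, and the interval reached a log2 difference of 1 for 7 of them. With that precision the lack of calls does not show that the members responded alike in both lines. On log2(TPM + 1), where the median over all genes was 0.38, 13 members were called as higher in OCI-Ly1 at 500 nM. Across the 25 members tested in both lines, 15 changed with the same sign at 500 nM, 14 of them upward, and the Spearman correlation of the changes was 0.13; these values share library depth and the members' sequence likeness.

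**Figure D4:**
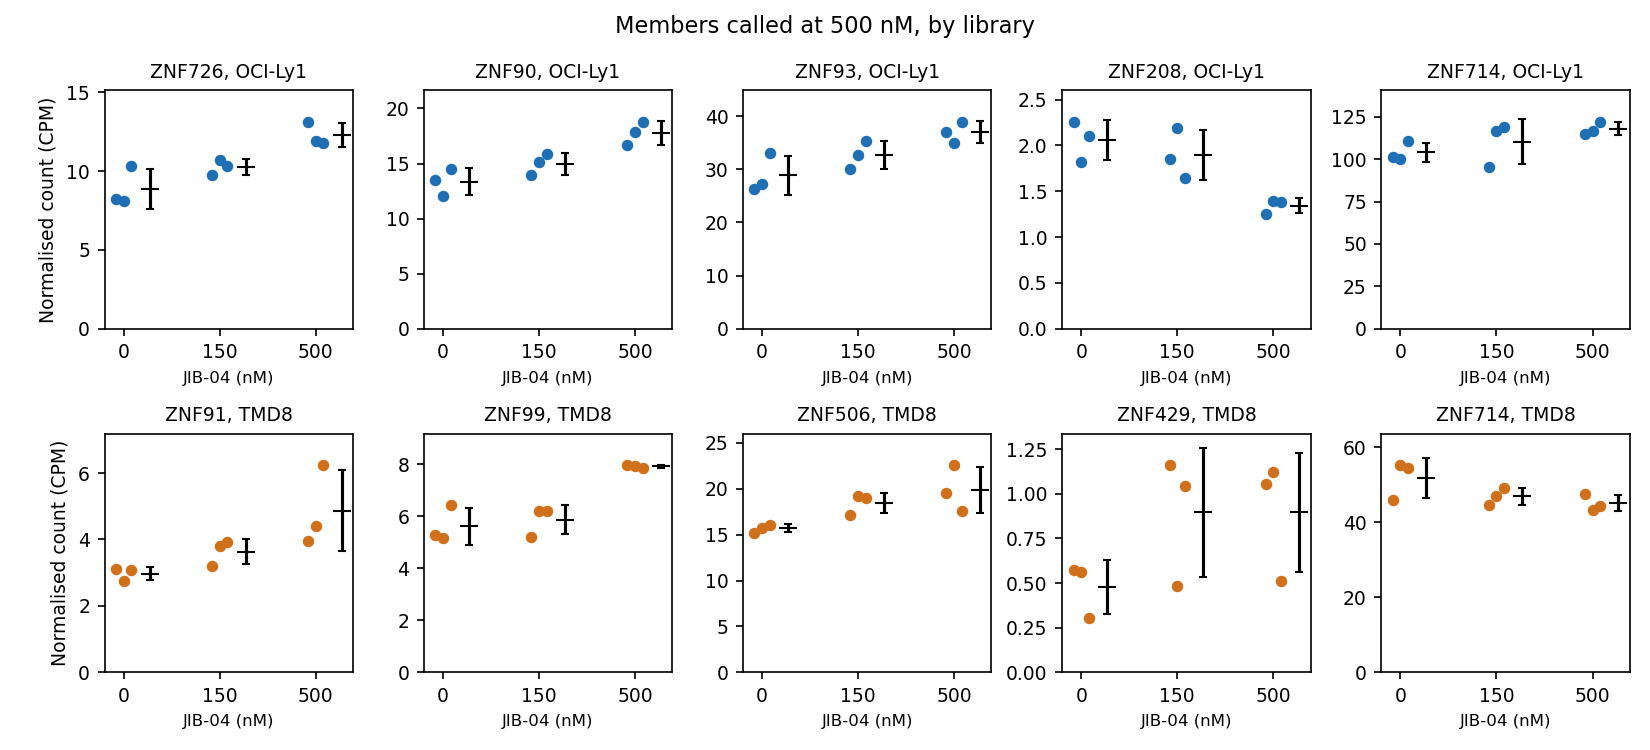
CPM scaled within each line for 9 of the members called at 500 nM, ZNF714 in both lines, against the JIB-04 dose. Points are libraries, and the black marks are means with SD of 3 libraries; each vertical axis starts at 0. ZNF714 is higher at 500 nM in OCI-Ly1 and lower in TMD8.

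The 5 members without counts in TMD8 with DMSO were ZNF257, ZNF676, ZNF98, ZNF726 and ZNF254. They had 0 counts in all 9 TMD8 libraries, those at 500 nM included. With 3 counts as the limit that a count of 0 allows, a level of up to 0.198 to 0.308 CPM per library at 500 nM would not have been detectable at this depth. In OCI-Ly1 ZNF676 was at 0 in 8 of 9 libraries and had 4.02 counts in 1 library at 500 nM. ZNF257 had 13.1, 0 and 4.27 counts at 500 nM, against 3.01 to 4.02 counts with DMSO. ZNF98 had at most 4.39 counts in a library. None of these 3 could be tested.

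The summed level of the cluster moved little with dose. In OCI-Ly1 it was 955 ± 70.7 CPM with DMSO, 1010 ± 117 CPM at 150 nM and 1048 ± 22.5 CPM at 500 nM (SD, n = 3). In TMD8 it was 236 ± 16.4, 241 ± 9.63 and 254 ± 3.78 CPM (SD, n = 3). The DMSO and 500 nM libraries overlapped in both lines. On the TPM scale the sum in OCI-Ly1 went from 335 ± 30.3 to 393 ± 13.4 TPM at 500 nM, whereas in TMD8 it went down, from 43.3 ± 2.27 to 35.1 ± 2.08 TPM (SD, n = 3). In TMD8 the single gene MIR3687 took 16.1% to 17.3% of all TPM with DMSO and 19.1% to 24.4% at 500 nM, against at most 0.674% in any OCI-Ly1 library. RPPH1 took 6.88% to 7.63% in OCI-Ly1 with DMSO and 9.70% to 10.57% at 500 nM. Their part in the result was not tested. The direction of the cluster's sum in TMD8 differed between CPM and TPM.

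**Figure D5:**
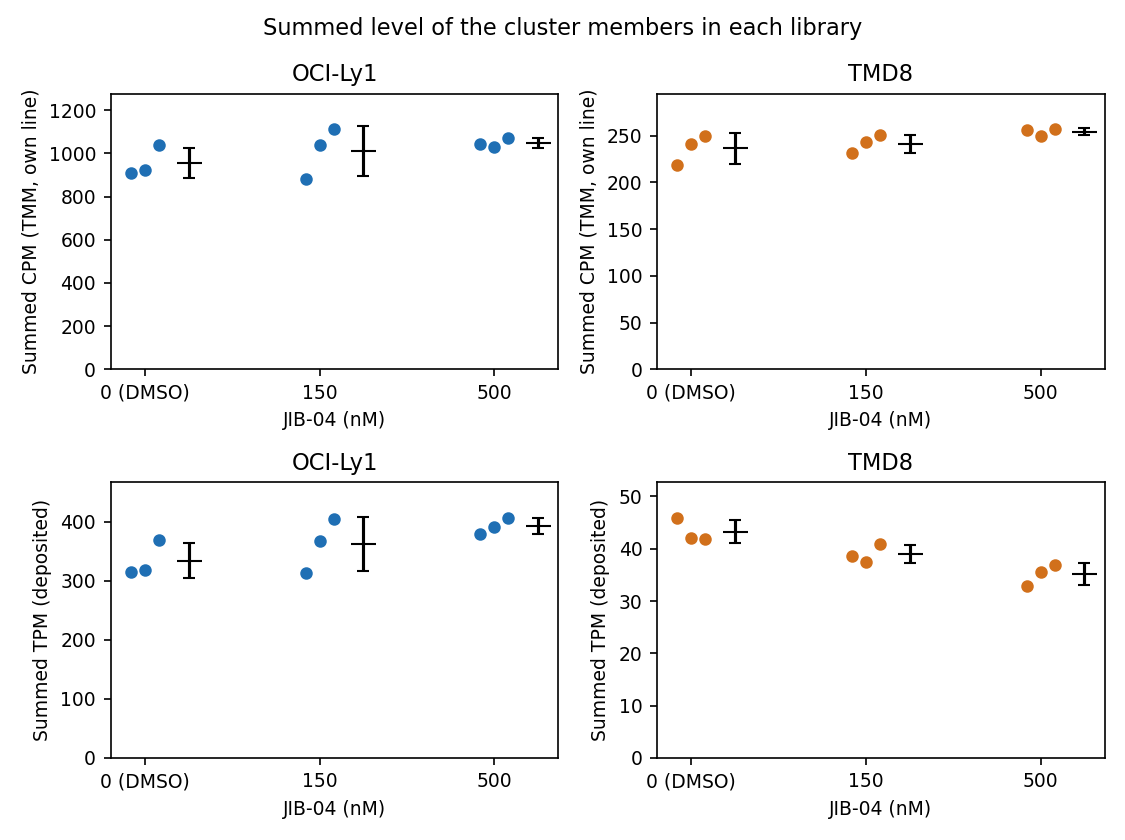
Sum over the 31 members in each library against the JIB-04 dose, in CPM scaled within the line (top) and in deposited TPM (bottom). Points are libraries, and black marks are means with SD of 3. In TMD8 the mean rises from 236 to 254 CPM but falls from 43.3 to 35.1 TPM.

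The genes of the silencing machinery that KRAB zinc-finger proteins use fell in part at the same doses. Of 24 genes listed, all were tested. In OCI-Ly1 none was called at 150 nM, and at 500 nM 11 were called lower and 1 higher, with a median change of -0.14, beside 25.9% lower and 27.7% higher over all genes. In TMD8 15 were called lower and 2 higher at 150 nM, and 17 lower and 4 higher at 500 nM, with medians of -0.22 and -0.35. Over all genes 25% were lower and 19.2% higher at 150 nM, and 30.7% and 29.9% at 500 nM. TRIM28, the corepressor that KRAB binds, fell by 0.19 in OCI-Ly1 and by 0.38 in TMD8 on the log2 scale at 500 nM, where log2(TPM + 1) gave -0.05 and -0.75. CBX3, the HP1 gamma protein, fell by 0.36 and 0.79, and CHD4, an ATPase of the NuRD complex, fell by 0.38 and 0.79. SUV39H1, an H3K9 methyltransferase, fell by 0.85 in TMD8, while its value in OCI-Ly1 was -0.14 and was not called. SETDB1 fell by 0.19 in TMD8, with a value of -0.14 in OCI-Ly1 that was not called. In the other direction, SETDB2, ATRX, MPHOSPH8 and ZNF274 had 0.33, 0.24, 0.22 and 0.18 in TMD8 at 500 nM. On log2(TPM + 1) these values were -0.05, -0.12, -0.15 and -0.19. The largest values above 0 in OCI-Ly1 at 500 nM were 0.17 for MORC2 and 0.13 for ZNF274. In OCI-Ly1 the count depended on the scale, with 6 called lower and 4 higher on log2(TPM + 1), where the SETDB1 value was 0.06. In TMD8 that scale gave 20 lower and none higher.

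Genes for demethylases of H3K9, the enzyme group that JIB-04 is known to inhibit in part, were called higher more often than lower. Of the 11 listed, 8 were called higher and 2 lower in OCI-Ly1 at 500 nM, with a median of 0.38, beside 27.7% and 25.9% of all genes, and none was called at 150 nM. In TMD8 5 were called higher and 1 lower at 150 nM, and 7 higher and 2 lower at 500 nM, with a median of 0.31, beside 19.2% and 25% of all genes at 150 nM and 29.9% and 30.7% at 500 nM. KDM4A rose by 0.44 in OCI-Ly1 and by 0.38 in TMD8 at 500 nM, and JMJD1C by 0.54 and 0.65. On log2(TPM + 1) the TMD8 values were 0.0099 for KDM4A and 0.26 for JMJD1C. KDM1A, a flavin-dependent demethylase outside the Jumonji class, fell by 0.41 and 0.58. Values below 0 were not confined to KDM1A. KDM3B had -0.21 in OCI-Ly1 and -0.10 in TMD8, and PHF8 had 0.32 and -0.09. KDM4D had 0.61 in OCI-Ly1 and -0.91 in TMD8, where it rested on 7 to 23 counts per library at 500 nM. On log2(TPM + 1) the TMD8 count was 1 higher and 4 lower, with a median of -0.05.

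For the other zinc-finger genes the same counts stand beside those of the cluster, without a test between them. Of the other ZNF genes, 23.7% were called higher and 19.01% lower in TMD8 at 500 nM, and 33.6% and 16.0% in OCI-Ly1. The medians of the other ZNF genes were 0.06 in TMD8 and 0.09 in OCI-Ly1, beside 0.25 and 0.15 for the members. Of the flanking genes tested, 9 of 17 rose and 4 fell in OCI-Ly1 at 500 nM, and 6 of 16 rose and 6 fell in TMD8, beside 27.7% and 25.9% of all genes in OCI-Ly1 and 29.9% and 30.7% in TMD8.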

How the data were processed

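RNA of 18 libraries was depleted of ribosomal RNA and read as pairs of 101 cycles, per the labels' protocols. The authors deposited estimated counts and TPM per gene for each cell line, made with kallisto 0.46.0 on hg19 per the submitters' processing notes; the annotation, strand and the step from transcripts to genes are not given in the sources used here. The deposited estimated counts were rounded to whole numbers. The deposited TPM sum to 1000000 per library and served for levels between genes and as alternatives. Floors of 3 counts cover counting error only; 95% intervals of fold changes come from the standard errors, by a normal approximation, and include the spread between libraries.

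Genes were tested with edgeR 4.0.16 in R 4.3.3 (quasi-likelihood, TMM, filterByExpr, Benjamini-Hochberg over all genes tested, called at an adjusted p under 0.05). Each line was fitted alone on its 9 libraries. Levels and responses were compared between lines in 1 fit of all 18, on a common CPM scale. Each standard error was derived from the fold change and the F statistic of its test. The within-line fit was also run on counts simulated from OCI-Ly1, with far fewer changed genes than in the data. That run did not cover the joint fit or changes as small as those of the members. Alternatives were DESeq2 1.42.0, other size factors, no filter, limma 3.58.1 on log2(TPM + 1), log2(TPM + 0.1) and centred values, a replicate block, and leaving out each library.

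The members and lists were chosen with earlier results of these data known. Values in every library are given for up to 6 members per line with the largest called change at 500 nM (mean of at least 1 CPM and more than 3 counts in each library of the higher group), members called at 150 nM in OCI-Ly1, up to 4 with the largest called difference between lines in response and in level, and the 3 highest in TPM per line; ZNF429, ZNF101 and others were added after their values were seen. Gene order and promoters come from RefSeq on GRCh38.p14, a build other than that of the counts, and no coordinate was joined to the counts. A planned protein comparison was replaced by shared 31-base words of GENCODE v29 transcripts.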

Additional observations from a re-analysis of the deposited data

Results flagged for a closer look

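ZNF714 was set apart because its response at 500 nM JIB-04 differed between the lines by a test of the difference itself. The change was 0.18 in OCI-Ly1 and -0.20 in TMD8 on the log2 scale, and the difference was 0.41 (adjusted p = 0.0027, edgeR, joint fit of all libraries). In OCI-Ly1 each library at 500 nM was above each DMSO library, and in TMD8 1 of 3 DMSO libraries lay among the libraries at 500 nM.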

How the results depend on the processing

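The higher level of the cluster in OCI-Ly1 was the stable result: 25 members were called higher with every library left out in turn, and 1 lower, while the number lower was 0 on both TPM scales and 2 on centred TPM. In the main fit the 25 include ZNF93, ZNF726 and ZNF254, which passed the filter through OCI-Ly1 alone and had to differ. Of the 25 members that passed in both lines, 22 were called higher there. Counts of dose calls depended on the scale. In OCI-Ly1 at 500 nM against DMSO, library size alone gave 15 higher and 1 lower, DESeq2 1 lower, log2(TPM + 1) and log2(TPM + 0.1) 0 lower, and centred TPM 3 higher. For 500 against 150 nM in OCI-Ly1 the number higher was 5 with library size alone, 1 without a filter and with DESeq2, 4 on both TPM scales and 0 on centred TPM, and the number lower was 0 on both TPM scales and 2 on centred TPM. In TMD8 at 150 nM the number higher was 2 with library size alone and 0 with DESeq2 and all 3 TPM scales, and the number lower was 0 with library size alone, without a filter and with DESeq2, and 2 on log2(TPM + 1). In TMD8 at 500 nM against DMSO, library size alone gave 9 higher and 0 lower, both TPM scales 0 higher and 3 lower, and centred TPM 12 higher and 2 lower. For 500 against 150 nM in TMD8 the number higher was 2 with library size alone and on centred TPM and 0 with DESeq2 and both TPM scales, which gave 1 lower. The line difference in response at 150 nM had 1 higher on centred TPM and with a pseudocount of 1, and 2 higher with a pseudocount of 0.1. At 500 nM it had 13 and 9 higher on the 2 TPM scales and 3 lower on centred TPM. The cause was not tested.

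Directions turned in 12 cases among single members, all on TPM scales. ZNF506 in TMD8 at 500 nM became -0.029 and -0.037. The line difference at 500 nM became 0.38 and 0.42 for ZNF101, 0.38 and 0.44 for ZNF431 and 0.30 for ZNF506. The level difference with DMSO became -0.55 for ZNF208 on centred TPM, 0.47 and 0.88 for ZNF492, and 0.049 and 0.12 for ZNF99. The cause was not tested.

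Leaving out 1 library at a time gave 4 to 11 higher and 1 to 2 lower in OCI-Ly1 at 500 nM against DMSO, with 1 lower without DMSO replicate 1, DMSO replicate 3 or 500 nM replicate 1. It gave 0 to 5 higher and 1 to 3 lower for 500 against 150 nM, with 0 higher without 150 nM replicate 1, 500 nM replicate 2 or 500 nM replicate 3. In TMD8 it gave 0 to 2 higher and 0 to 1 lower at 150 nM, 3 to 7 higher and 0 to 1 lower at 500 nM, and 0 to 1 in each direction for 500 against 150 nM. The lower call at 500 nM was lost without DMSO replicate 2, 500 nM replicate 2 or 500 nM replicate 3. The line difference gave 0 to 1 in each direction at 150 nM, and 1 to 2 higher and 0 to 2 lower at 500 nM. In OCI-Ly1 at 150 nM it gave 0 in both directions.

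Whether replicate numbers pair the libraries is not settled. Same-numbered libraries had correlations of deviations between -0.0668 and 0.259 for OCI-Ly1 and between -0.0696 and 0.18 for TMD8. Other-numbered libraries had -0.287 to 0.0709 and -0.222 to 0.16. The medians of same-numbered libraries were -0.0033 and -0.0106. In OCI-Ly1 the value of 0.259 was that of DMSO against 150 nM, for replicate 1 and for replicate 3. With the replicate block 9 members were higher and 2 lower in OCI-Ly1 at 500 nM, 4 higher and 1 lower for 500 against 150 nM, 7 higher and 1 lower in TMD8 at 500 nM, and 1 higher and 1 lower for the line difference at 500 nM. Depth limits members under about 10 counts per library, such as ZNF429 in TMD8.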
